A study of Mus musculus with 19 samples.

Results

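The late LPS response genes Il6, Il12b and Nos2 were described through the accessible regions around their starts in macrophage chromatin. Members were all regions of a single consensus list of ATAC-seq peaks that overlapped, by at least 1 bp, a window drawn around each gene on mm39: chromosome 5 from 30180000 to 30250000 for Il6, chromosome 11 from 44270000 to 44330000 for Il12b and chromosome 11 from 78780000 to 78880000 for Nos2. The windows held 38 of the 140383 peaks in the list, with 7 at Il6, 11 at Il12b and 20 at Nos2. The 3 genes lie on the plus strand, and distances are counted from starts near 30218110 (Il6), 44290890 (Il12b) and 78811600 (Nos2), so they are approximate.

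ATAC-seq, in which the Tn5 transposase cuts and tags open DNA, was done on 19 samples of mouse primary bone marrow-derived macrophages (BMDM). The 10 samples with deleted Smarca5 (genotype Smarca5-/-) came from Smarca5lox/lox Csf1r-Cre mice, and the 9 wild-type samples came from mice that also carried Csf1r-Cre. Both genotypes received 4-hydroxytamoxifen every day while they differentiated for 7 days, so the recombinase and the drug were shared by both, and the Csf1r promoter limits the deletion to cells that have used it. Within each genotype, cells received LPS at 10 ng/ml for 1 h or 2 h, IFNb at 100 U/ml for 1 h or 2 h, or no stimulus. This made 10 groups, 9 of them with 2 samples and 1, wild-type cells given IFNb for 1 h, with a single sample. The list gives 1 set of values per peak for the whole series and names no sample. The values below therefore compare regions with regions, carry no replicate error and say nothing about genotype, stimulus or time. Read depth is unknown.

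Il6 encodes the cytokine IL-6, Il12b encodes the subunit shared by the cytokines IL-12 and IL-23, and Nos2 encodes the inducible nitric oxide synthase that macrophages use against microbes. All are textbook secondary response genes: LPS signals through TLR4 to NF-kB, and full transcription then needs newly made factors and remodelling of promoter nucleosomes, for which SWI/SNF complexes are known in mouse macrophages. Smarca5 encodes an ATPase of another remodeller family, ISWI, and the study asks what its loss does to inducible accessibility. C/EBP factors and AP-1 are further known activators at the Il6 and Il12b promoters.

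The letters of the promoters are shown as background to the peaks at the starts, and no motif was related to a peak. RefSeq's promoter table, of build GRCm38.p6, matched 2 of the 3 genes, Il6 and Il12b; Nos2 was not matched. The 250 bases before the start, on the plus strand, are printed 5′ to 3′, from chr5:30012864-30013113 for Il6 and chr11:44399813-44400062 for Il12b. These positions belong to that build and are not those of the peaks. In the Il6 sequence, capitals mark, in order, an AP-1 motif (TGANTCA), a CRE motif (TGACGT, read on the minus strand), a C/EBP motif (TTGCNNAA, minus strand) and a stretch that matches the NF-kB motif (GGGA and CC with 4 bases of any kind between them) on both strands. In the Il12b sequence, capitals mark 3 shorter stretches that were chosen after the sequence had been read.
Il6: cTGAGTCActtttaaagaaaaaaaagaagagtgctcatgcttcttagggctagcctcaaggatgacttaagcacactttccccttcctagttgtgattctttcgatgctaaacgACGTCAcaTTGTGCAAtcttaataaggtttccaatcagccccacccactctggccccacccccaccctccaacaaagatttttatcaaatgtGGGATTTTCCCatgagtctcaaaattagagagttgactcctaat
Il12b: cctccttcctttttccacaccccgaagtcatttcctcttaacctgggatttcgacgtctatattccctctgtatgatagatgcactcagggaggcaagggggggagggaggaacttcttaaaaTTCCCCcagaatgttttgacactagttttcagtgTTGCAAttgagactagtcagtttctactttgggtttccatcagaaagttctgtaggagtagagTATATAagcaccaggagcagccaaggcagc

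The Il6 promoter held all 4 of these full motifs. With the first transcribed base as +1 and the base before it as -1, the NF-kB matches, GGGATTTTCC on the plus strand and its neighbour on the minus strand, overlapped and together ran from -44 to -34. The C/EBP match TTGCACAA ran from -128 to -121, the CRE from -136 to -131 and the AP-1 match, which reads on both strands, from -249 to -243. Among the 32851 promoter entries of the table, searched over the same 250 bases on both strands, 17.6% held the NF-kB motif, 9.56% the C/EBP motif, 6.75% the AP-1 motif and 6.47% the CRE. The other motifs searched were not in the Il6 window. The interferon response motif, GAAA and GAAA with 2 bases of any kind between them, was in 2.98% of promoters. The letters GAGGAAG, which the macrophage factor PU.1 can bind, were in 10.6%, and the TATA box letters TATAAA were in 12.4%.

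None of these 7 motifs was in the Il12b window, which says only that these letters are not there. Of the shorter stretches, TTCCCC, which resembles the end of an NF-kB site, lay from -127 to -122 and was in 20.3% of promoters. TTGCAA, which reads the same on both strands and is part of many C/EBP sites, lay from -93 to -88 and was in 5.34% of promoters. TATATA, which also reads the same on both strands, lay from -30 to -25 and was in 5.25% of promoters. The Il6 window held TTCCCC as well but neither of the others. A feature both promoters share is a base composition below that of the typical promoter: GC content was 42.8% for Il6 and 46% for Il12b, against a median of 52.4% over all promoters, and each had 3 CpG dinucleotides, against a median of 6. Such values are common: 17.9% of promoters had a lower GC content than Il6, 27.1% a lower one than Il12b, and 37.8% had 3 or fewer CpG dinucleotides.

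At Il6, the peak with the highest fold and the highest −log10 q of its window was the peak over the start itself. It ran from 30217754 to 30218371 on chromosome 5, from 356 bp before to 261 bp after the start, with its summit 201 bp upstream. The authors' fold enrichment over local background was 21.6, and 87.8% of all peaks had a lower fold. Its −log10 q, the peak caller's measure of confidence, was 388, above that of 92.6% of all peaks. At 618 bp it was also the widest of the 38 members and wider than 96.6% of the list. The only other peak within 3 kb, 137 bp wide with its summit 1.64 kb downstream, had a fold of 11.02 and a −log10 q of 96.2.

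At Il12b, the start itself carried the weakest peak of its window, and a strong peak lay about 1 kb upstream of it. The peak at the start, 44290708 to 44290908 with its summit 31 bp upstream, had a fold of 3.23, and only 1.48% of all peaks had a lower fold. Its −log10 q was 14.8, above that of 12.3% of peaks. The upstream one, 44289721 to 44290067 with its summit 968 bp from the start, had a fold of 21.7 and a −log10 q of 207, above 87.8% and 84.9% of all peaks. It ended 823 bp before the start. The share of the list with a lower fold, 87.8%, was the same as for the Il6 start peak, although the Il6 peak had the higher −log10 q and was wider, at 618 bp against 347 bp.

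At Nos2, the promoter held a single narrow peak of intermediate fold. It ran from 78811434 to 78811571, 138 bp that ended 29 bp before the start, with its summit 79 bp upstream. The fold was 13.4, above that of 67.6% of all peaks, and the −log10 q was 221, above that of 85.8%. The order of the peaks nearest the start by fold was thus Il6 with 21.6, Nos2 with 13.4 and Il12b with 3.23, and by −log10 q it was the same, with 388, 221 and 14.8. No replicate spread exists to say which neighbours in that order differ beyond error. Their widths were 618 bp at Il6, 138 bp at Nos2 and 201 bp at Il12b.

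**Figure D1:**
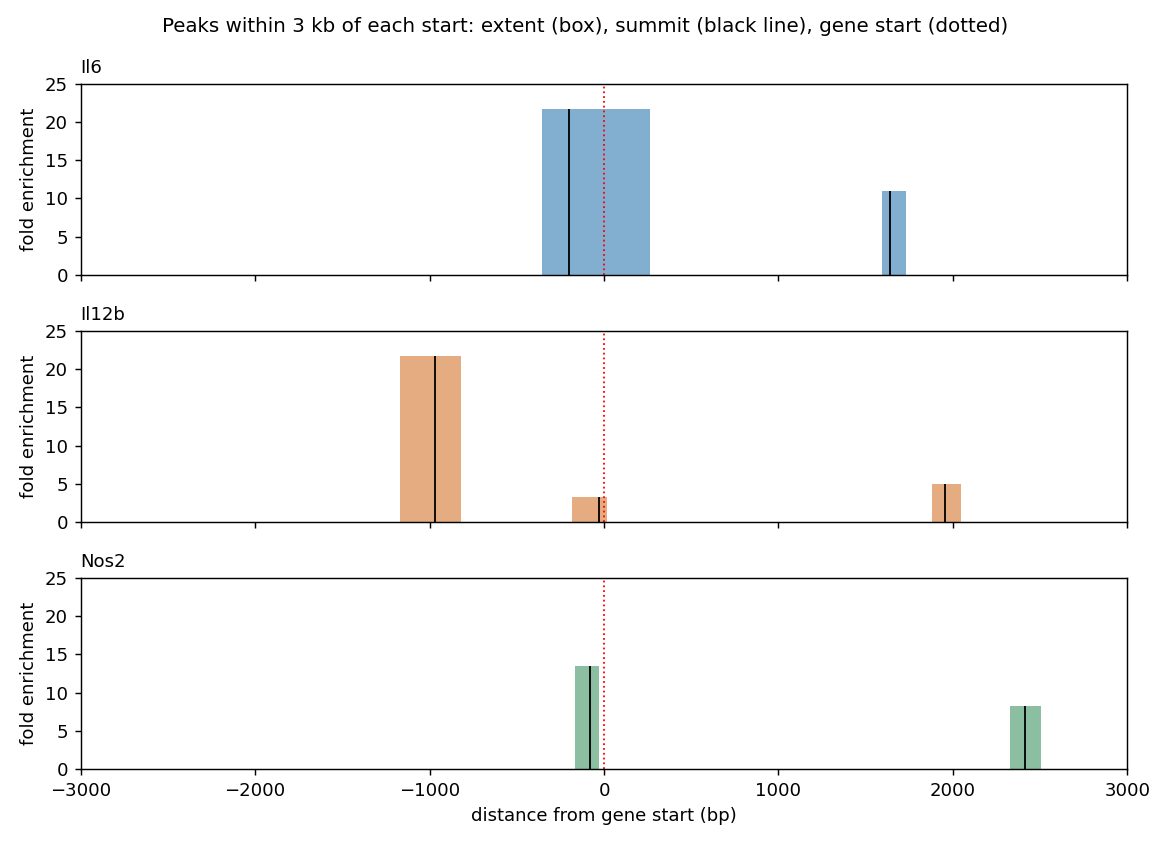
Peaks within 3 kb of the start of each gene, drawn to scale, with distance from the start in bp on the x axis and the authors' fold enrichment on the y axis. Boxes span the peaks, black lines mark summits and the dotted line marks the gene start. The Il6 peak spans the start with a fold of 21.6, the Il12b peak at the start reaches 3.23 beside a peak of 21.7 upstream, and the Nos2 peak of 13.4 ends just before the start.

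Upstream, defined as ending more than 1000 bp before the start, the strongest peak was higher in fold and −log10 q at Il12b and Nos2 than at Il6. The Il12b peak of fold 21.7 with its summit 968 bp from the start overlapped that limit and was counted with the promoter. The strongest upstream peak at Nos2, 78807309 to 78807583 with its summit 4.16 kb from the start, had a fold of 21.8 and a −log10 q of 292, higher on both measures than the peak at the promoter. The strongest at Il12b, 44281030 to 44281387 with its summit 9.79 kb from the start, had a fold of 15.1 and a −log10 q of 291. An inducible enhancer upstream of the Il12b promoter has been described in mouse macrophages, but whether this region is that enhancer was not tested. The strongest at Il6, 30198717 to 30198861 with its summit 19.3 kb from the start, had a fold of 11.7 and a −log10 q of 38.7. Its fold was above the list's median of 9.85, and its −log10 q was below the list's median of 45.3.

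The rest of the upstream peaks were weaker, with 1 exception at Nos2. At Il6, the peaks 15.3 kb and 5.85 kb from the start had folds of 6.95 and 4.74, the second being the weakest of its window. At Il12b, the peaks 19.2 kb and 17.6 kb upstream had folds of 8.76 and 4.63. At Nos2, a peak 23.8 kb upstream had a fold of 16.6 with a −log10 q of 64.7 over only 132 bp, and the other 3 had folds from 4.93 to 5.45. The windows cut the upstream side at different distances. Just outside them, the nearest peak had a fold of 5.75 at 39.3 kb for Il6, 20.9 at 22.0 kb for Il12b and 26.3 at 33.6 kb for Nos2, so at both genes on chromosome 11 a peak with a fold of at least 20 lay just past the edge.

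Downstream, from 500 bp after the start, each window held at least 1 peak with a fold of at least 20, far from the start. At Il12b it was the peak of highest fold among the 38 members, 44328668 to 44328932, with its summit 37.9 kb downstream. It had a fold of 34.2, above 99.1% of the list, and a −log10 q of 257. At Nos2 the strongest, 78875480 to 78876011 with its summit 64.3 kb downstream, had a fold of 24.2 and a −log10 q of 1013, the highest of all members and above 98.9% of the list. At 532 bp it was also the widest of its window. At Il6 it was 30244903 to 30245319, 26.9 kb downstream, with a fold of 20.7 and a −log10 q of 281, and a second peak 23.0 kb downstream had a fold of 15.2 and a −log10 q of 165. Both were well above the 3 upstream Il6 peaks in fold and −log10 q.

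Which gene these distal peaks serve cannot be read from the list. By gene order in GRCm38.p6, the next gene after Il6 is Tyms, which encodes thymidylate synthase, the next after Il12b is the long non-coding RNA gene Gm42073, and the next after Nos2 is Lgals9, which encodes galectin-9. The promoter table places all of these on the minus strand, facing the described genes. Peaks were not assigned to exons, introns or neighbouring promoters, since no annotation of mm39 was used here. Whether the peak 64.3 kb downstream of the Nos2 start lies at the start of Lgals9 was not tested.

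Between these strong regions the downstream parts held weaker peaks. At Il12b, peaks 14.7 kb and 17.5 kb downstream had folds of 12.0 and 13.3, and the first, at 464 bp, was the widest of the window. The peaks 1.95 kb, 10.6 kb and 28.0 kb downstream had folds of 4.94, 6.32 and 8.44. At Nos2, 3 peaks reached a fold above the list's median, 13.4 at 29.8 kb, 12.3 at 46.8 kb and 11.8 at 52.8 kb, apart from the strongest. A run of 4 peaks from 39.3 to 41.4 kb downstream had folds of only 5.53, 4.58, 2.99 and 2.79, the last being the lowest of all members, with a −log10 q of 5.87. The other downstream Nos2 peaks had folds from 4.49 to 8.24.

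**Figure D2:**
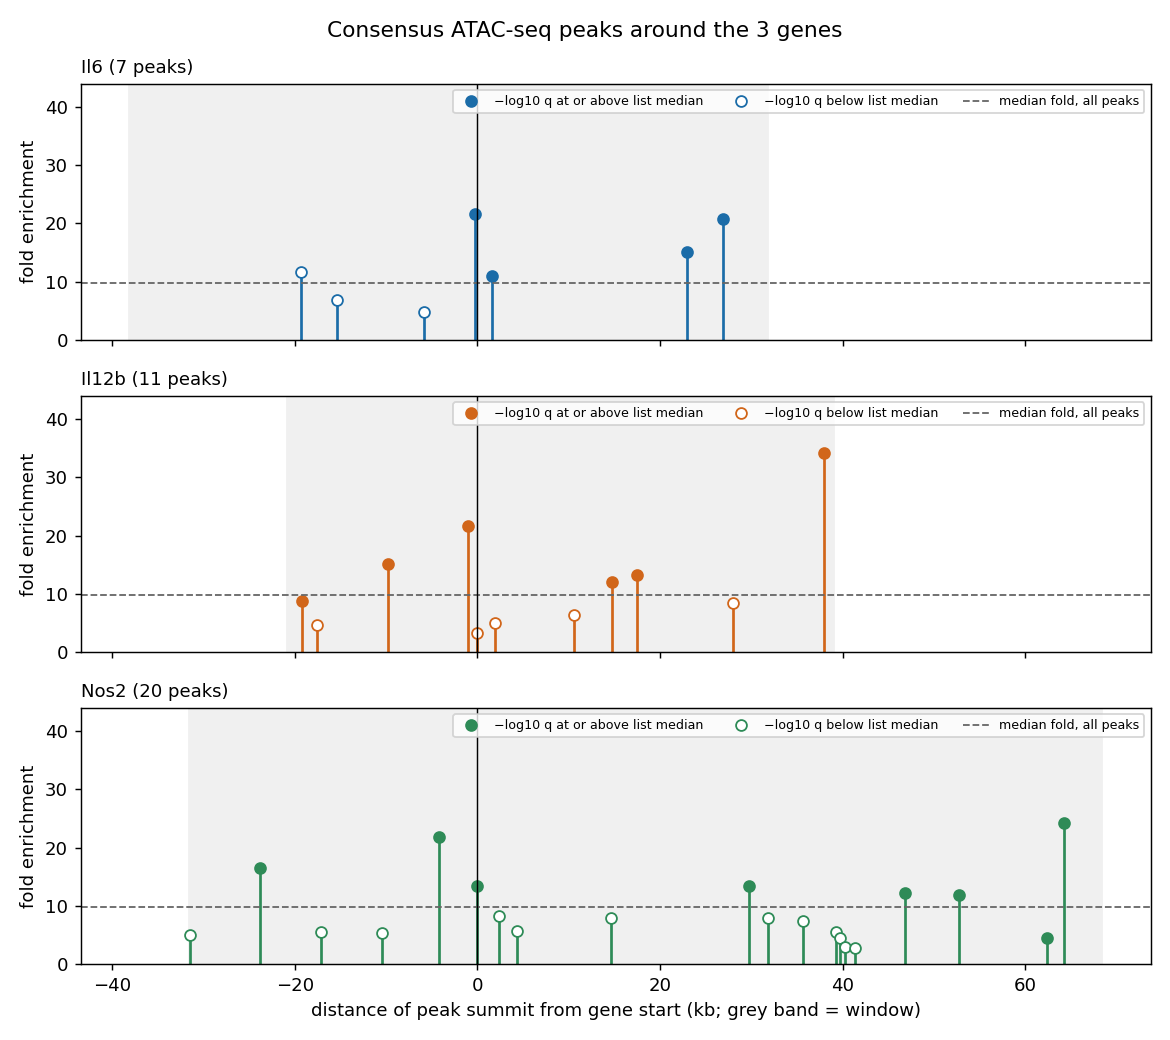
All 38 peaks by the distance of their summit from the gene start, in kb, on the x axis and the authors' fold enrichment on the y axis. Filled points have a −log10 q at or above the median of the list, open points lie below it, the dashed line is the median fold of all peaks, 9.85, and the grey band is the window. Il6 has its highest point at the start, whereas the highest points of Il12b and Nos2 lie 37.9 kb and 64.3 kb downstream.

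Over all 3 windows, the members were not stronger than the list. Their median fold was 8.34, against 9.85 for all peaks, and their median −log10 q was 36.6, against 45.3. Among the 38 members, 6 had a fold of at least 20, 2 in each window, where 15.0% of all peaks reach it. A fold below 5 was found for 9 of 38, 1 at Il6, 3 at Il12b and 5 at Nos2, where 10.4% of all peaks have one. The −log10 q was at or above the list's median for 18 of 38, 4 at Il6, 6 at Il12b and 8 at Nos2, against 50.0% by definition. The median fold was 11.7 at Il6 (order-statistic interval of at least 95%, 4.74 to 21.6), 8.76 at Il12b (4.63 to 21.7) and 7.74 at Nos2 (5.34 to 12.3). The Il6 interval is the full range of the folds in its window. All 3 intervals treat the peaks of a locus as independent, which they are not, and they overlap.

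The density of peaks differed between the windows. Il6 had 1.0 peaks per 10 kb, Il12b 1.83 and Nos2 2.0. Of consecutive windows of the same length along the autosomes, 26.0% held at least as many peaks as the Il6 window, 9.14% at least as many as the Il12b window and 5.64% at least as many as the Nos2 window, although 39.9% to 44.9% of such windows held no peak. Within 30 kb on each side of the start, Il6 had 7 peaks, Il12b 12 and Nos2 9, so the rank of Nos2 rests on its long downstream part. Peaks covered 3.29% of the Il6 window, 4.69% of the Il12b window and 4.57% of the Nos2 window. The widest gap between neighbouring summits was 21.4 kb at Il6, between the peak just after the start and the distal pair, against 10.5 kb at Il12b and 15.1 kb at Nos2.

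Fold and −log10 q ranked several members differently. Over the whole list they had a Spearman's rho of 0.836, a description across 140383 peaks that share the same libraries. Each member's −log10 q was divided by the median of all peaks in the same percentile of fold. The ratio was above 1 for 27 of 38 members, 4 of 7 at Il6, 9 of 11 at Il12b and 14 of 20 at Nos2, where 50.0% of all peaks exceed their own median. At Il6, the 4 peaks from the start onward had ratios from 1.71 to 2.38, and the 3 upstream peaks had ratios from 0.624 to 0.836. The Nos2 promoter peak had a ratio of 3.59 and the Il12b peak 9.79 kb upstream one of 3.57. The Il12b peak of highest fold went the other way, with a ratio of 0.408, the lowest of all members. With a fold above 99.1% of the list, it lay near the lower end of the top percentile. Most peaks it was set against, with a median −log10 q of 631, thus had a higher fold. The highest, 4.51, was that of the Nos2 peak 62.4 kb downstream, a peak of fold 4.49 next to the strongest peak of that window, which itself had 4.04.

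**Figure D3:**
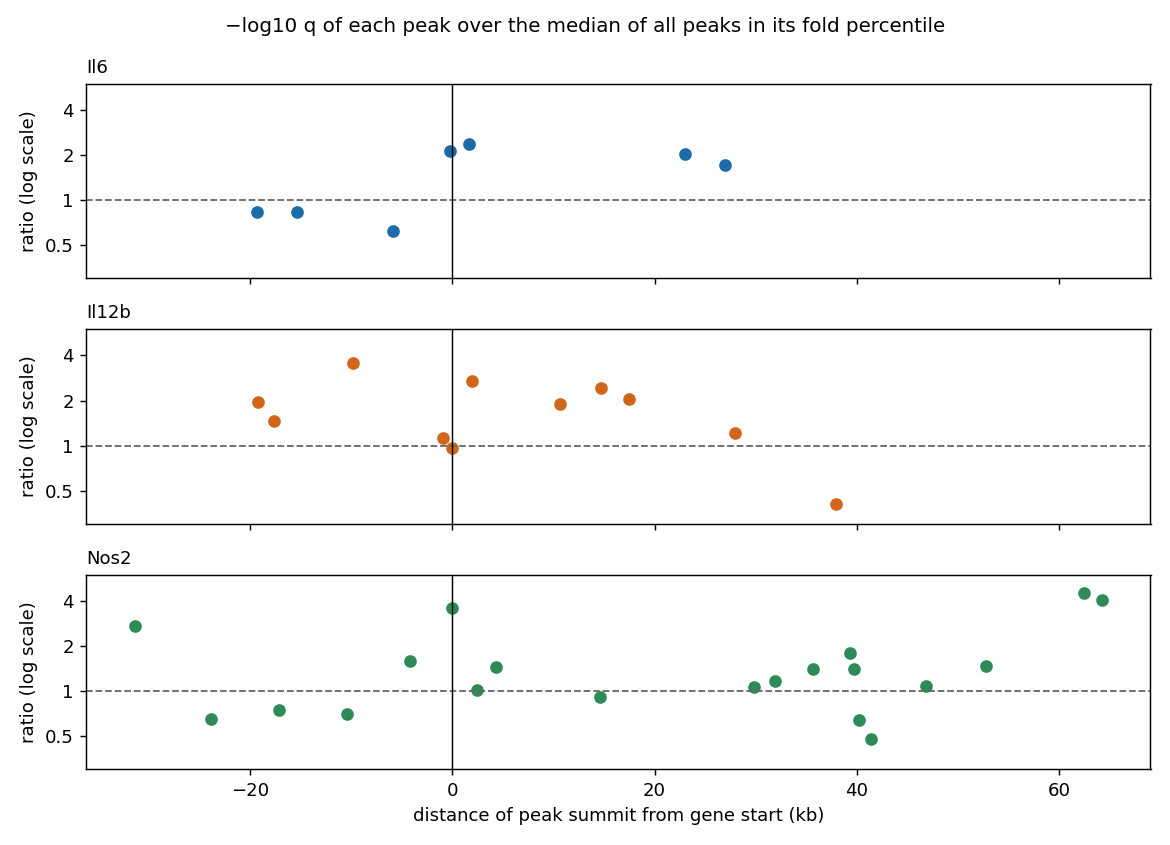
Each member's −log10 q divided by the median −log10 q of all peaks in its fold percentile, on a log scale, against the distance of its summit from the gene start in kb. The dashed line at 1 is the median of all peaks in the same fold percentile. At Il6 the 3 upstream peaks lie below it and the other 4 above it, and the Il12b point at 37.9 kb is the lowest, at 0.408.

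**Figure D4:**
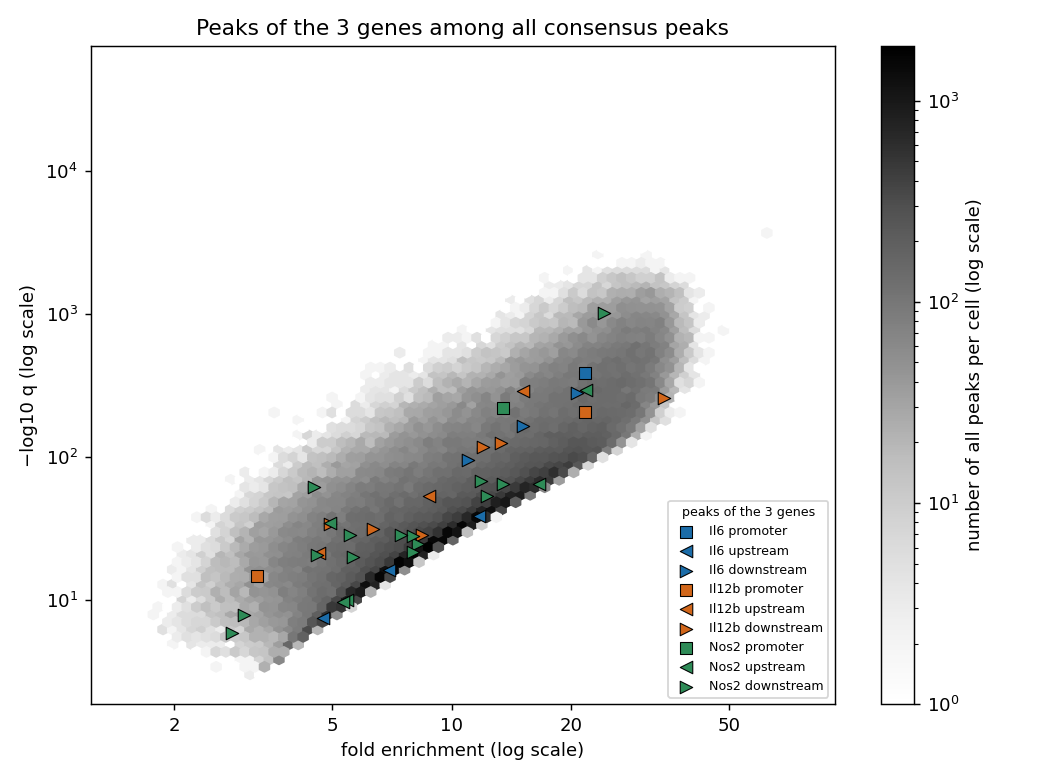
Fold enrichment (x axis) and −log10 q (y axis), both on log scales, for the members (coloured, with squares for promoter peaks and triangles for upstream and downstream ones) and for all 140383 peaks (grey cells, darker with more peaks). The Il6 promoter peak and the upstream Il12b promoter peak have nearly equal folds, 21.6 and 21.7, but differ in −log10 q, at 388 and 207, and the Il12b peak at the start lies near the left edge.

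The scores in the list differed in the whole number by which they had to be multiplied to become whole. Many were fractions, and no score needed a multiplier above 20. How the fractions came about is not given in the sources used here. A multiplier of at least 5 was needed by 24 of the 38 members, where 53.9% of all peaks need one, and a multiplier of 20 by 4 of the 38 members, where 14.6% of all peaks need it: the Il12b peak 37.9 kb downstream, the Nos2 promoter peak, and the Nos2 peaks 52.8 kb and 62.4 kb downstream. The upstream Il12b promoter peak needed 10, the Il12b peak at the start 2, and the Il6 start peak and the strongest upstream peaks of Il12b and Nos2 needed 5 each. Whole scores were found for 4 members, where 17.8% of all peaks have one: the Il6 peaks 15.3 kb and 5.85 kb upstream and the 2 weakest Nos2 peaks, 40.2 kb and 41.4 kb downstream. The series lists 19 samples, and the largest multiplier was 20. Which samples or peak calls entered each score is not known, so what the multipliers count was not tested.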

How the data were processed

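The submitters' processing notes name build mm39 and the tools MACS2 2.2.7.1, STAR 2.7.9a, deepTools 3.5.1 and Picard 2.27.4. What each tool did, the peak threshold, any read shifting and how samples were joined into one list: not given in the sources used here. Each deposited peak has a score, a fold (the layout's signal value, for MACS2 the enrichment over local background), a −log10 q-value and a summit offset. The deposited score was at most 1 less than 10 times the −log10 q. These values come from the authors and served to describe and rank peaks. Coordinates were read as counted from 1, since 0 summit offsets then reached the width, against 74 under a count from 0.

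Promoter peaks overlapped 1000 bp before to 500 bp after the start. The smallest multiplier up to 20 that made a score whole within 1e-06 was recorded. Each promoter peak, the strongest upstream and downstream peak by fold, and the peak of highest −log10 q, the widest and the weakest of each window were named in full. The functions that count, rank and search were tested on simulated data. No statistical test was run, because each peak has 1 value. Planned counts over lists of LPS genes and the check of macrophage markers were not run, because the gene table used belongs to another build, GRCm38.p6. The members and lists were chosen with earlier results of these data known. The alternatives tried were other windows, promoter limits, thresholds, rankings and motifs. Software was matplotlib 3.10.9, numpy 2.4.6, scipy 1.17.1, pandas 2.3.3 and Python 3.11.15.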

Additional observations from a re-analysis of the deposited data

How the results depend on the processing

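Of 40 alternative values, 24 stayed close to the reported value and 16 did not. The criterion was 1.5 times for counts, the order-statistic interval for median folds and the same peak for the strongest upstream peak. The Il6 interval spans all folds of its window, so no filter could move its median fold outside, and its alternatives were bound to count as close. For percentages of peaks it was a 95% Wilson interval, which is narrow over 140383 peaks (87.6% to 88.0% for Il6). The Wilson interval treats these peaks as independent, which they are not, and holds no replicate error, so small shifts counted as not close. When peaks below the list's median −log10 q were left out, the windows held 4 peaks at Il6, 6 at Il12b and 8 at Nos2. The median fold then rose in all windows, to 17.9 at Il6, 14.2 at Il12b and 13.4 at Nos2. Only the Nos2 value left its interval, the narrowest of them. Weak peaks are removed by construction. Within 30 kb of the start, Nos2 had 9 peaks. With only peaks whose score needed a multiplier of at least 5, chosen after seeing the data, Il6 had 4 peaks and Nos2 12. Ranked among chromosomes 5 and 11 only, the strongest promoter peak exceeded 88.5% of peaks in fold at Il6, 88.5% at Il12b and 68.6% at Nos2. Ranked without the peaks below that median, these shares were 75.6% at Il6, 75.6% at Il12b and 35.2% at Nos2. With the promoter taken as 250 bp before to 50 bp after the start, the share at Il12b was 1.48%, because the peak 968 bp upstream then falls outside. The choice of the strongest upstream peak was not repeated with that limit. The short NF-kB stretch TTCCCC, chosen after seeing the data, gave 1 match at Il6 and 1 at Il12b. The full NF-kB motif, counted on each strand, gave 2 at Il6 and 0 at Il12b. A looser form, GGG and CC with 5 bases between them, held by 45.8% of promoters, gave 3 at Il6 and 0 at Il12b. No paired analysis was possible because each peak has 1 value for all samples. As depth is unknown, a region without a peak may still be accessible.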
